A study of Mus musculus with 21 samples.

Results

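The 10 genes described here are the aryl hydrocarbon receptor Ahr, its partner Arnt, its repressor Ahrr and 7 genes that lie downstream of the receptor or on the routes that make its ligands (Cyp1a1, Cyp1a2, Cyp1b1, Tiparp, Nqo1, Ido1 and Tph1). Every non-control probe carrying one of these names, in the array annotation or by way of its RefSeq record, was taken, and each gene was followed by its brightest probe. They are 10 of 21736 genes tested at day 0, where 16 probes represent them, and 10 were looked for among 19728 genes at day 7, where 15 probes represent them and 9 of the 10 genes could be tested.

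The arrays held total RNA from whole colon tissue of male germ-free (GF) mice, which carry no microbiota. Mice of the strain Germ-free Card9-/- C57BL/6J (GFKO in the sample titles) lack Card9, an adaptor protein downstream of receptors for fungi and bacteria, and were compared with the strain Germ-free C57BL/6J WT (GFWT). At day 0, before dextran sulfate sodium (DSS), there were 7 arrays labelled GFKO and 6 labelled GFWT, and after 7 days of 2% DSS in the drinking water there were 4 of each, 1 array per sample and 21 in all. The study's methods give an age for the GF mice that were colonised with bacteria, but none is given for the mice of these arrays. The legend that covers the array panel speaks of independent experiments without saying which arrays belong to which, so the p-values measure the spread between these arrays. The study set the labels against each other to ask what the deletion does to the colon when no microbiota is present. Since bacteria supply many of the ligands of the receptor, GF colon is also a setting in which the bacterial supply is missing from both labels.

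AhR is a ligand-activated transcription factor that waits in the cytoplasm in a complex with the chaperone HSP90. With a ligand bound, such as an indole made from tryptophan, it enters the nucleus, pairs with ARNT and binds dioxin response elements, which turns on genes such as Cyp1a1, Cyp1b1, Tiparp and Ahrr. AHRR then competes for ARNT, TIPARP modifies the receptor and CYP1A1 breaks down its ligands, so that the targets form a loop back onto the receptor, which in the gut supports IL-22-producing cells and the epithelium.

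The binding site gives a way to see what the target genes share in sequence. The core of the dioxin response element, GCGTG on either strand, was searched in RefSeq windows of 300 bases around the transcription start (250 before it and 50 after, build GRCm38.p6), which were found for 8 of the 10 genes and not for Ahr or Ido1. It was found for 6 of these 8 (Arnt, Ahrr, Cyp1a1, Cyp1b1, Tiparp and Tph1, which has a start with 2 cores and another start with 0) and not for Cyp1a2 or Nqo1. Of all 32851 windows, 32.4% hold the core, and 5.07% hold the longer form TNGCGTG, which among these genes was found in Ahrr. The 250 bases before the start are printed below, in the direction of transcription, for the repressor and 3 classical targets whose array values are set against the receptor further on, with the core in capitals as GCGTG or, for a match on the other strand, CACGC.
Ahrr, chr13:74292332-74292581, minus strand: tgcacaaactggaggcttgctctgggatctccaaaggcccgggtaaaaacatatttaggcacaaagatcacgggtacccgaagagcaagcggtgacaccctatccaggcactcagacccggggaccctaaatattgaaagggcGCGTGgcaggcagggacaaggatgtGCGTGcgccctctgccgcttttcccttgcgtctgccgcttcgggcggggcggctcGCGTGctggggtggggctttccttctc
Cyp1a1, chr9:57697363-57697612, plus strand: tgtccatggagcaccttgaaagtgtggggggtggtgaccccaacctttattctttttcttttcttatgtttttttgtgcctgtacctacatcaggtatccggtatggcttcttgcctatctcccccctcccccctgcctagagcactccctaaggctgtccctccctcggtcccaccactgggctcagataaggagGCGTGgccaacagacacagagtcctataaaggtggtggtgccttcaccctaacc
Cyp1b1, chr17:79715062-79715311, minus strand: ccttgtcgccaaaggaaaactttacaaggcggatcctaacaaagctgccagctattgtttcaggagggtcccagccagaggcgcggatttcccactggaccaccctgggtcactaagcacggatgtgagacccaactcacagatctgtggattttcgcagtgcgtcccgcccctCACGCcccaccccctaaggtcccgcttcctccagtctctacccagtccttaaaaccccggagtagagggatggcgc
Tiparp, chr3:65528197-65528446, plus strand: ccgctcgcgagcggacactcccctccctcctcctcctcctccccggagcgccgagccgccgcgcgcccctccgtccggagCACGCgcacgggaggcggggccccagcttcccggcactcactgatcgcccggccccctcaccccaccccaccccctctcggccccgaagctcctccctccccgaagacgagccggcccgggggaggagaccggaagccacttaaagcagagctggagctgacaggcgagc

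Ahrr holds 3 cores in this window, of which the nearest to the start begins at position -27, while Cyp1a1 holds 1 at -54, Cyp1b1 1 at -76 and Tiparp 1 at -170 (positions of the first base of the match, with -1 just before the start). The antioxidant response element core TGACNNNGC, bound by NRF2, the factor that drives Nqo1 together with AhR, was found near Arnt (2 matches) and Tph1 (2 in the first window and 1 in the second), and 12.4% of all windows hold it. These letters are a description of the windows, not evidence that AhR or NRF2 was bound there, and distal elements lie outside them.

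The labels need a caution before any direction is read. Card9, the gene deleted in GF Card9-/- mice, was brighter in the arrays that carry the GFKO label: at day 0 its brightest probe was at 8.71 to 9.24 (normalized log2 signal) in the 7 arrays labelled GFKO and at 2.30 to 2.33 in the 6 labelled GFWT. At day 7 it was at 7.93 to 8.57 in the 4 arrays labelled GFKO and at 2.38 to 7.85 in the 4 labelled GFWT, where replicate 1 was the bright one. This goes against the labels, which are kept here as deposited, and each difference below is GFKO minus GFWT as labelled. A second day 0 probe of Card9 was at 6.75 to 7.51 under the GFKO label and at 2.85 to 3.77 under GFWT. Both day 0 probes were well above background on 7 arrays labelled GFKO and 0 labelled GFWT. Which part of Card9 was deleted is not given in the sources used here, so whether its probes lie inside it is not known. A probe outside it could keep signal under the GFKO label, which does not bear on the dim signal under GFWT. Whether the labels were exchanged was not tested; if they were, every signed difference below would turn. Between 42.2% and 64.9% of the spots of an array were well above background by the scanner software's own test. The colon markers Car1 and Krt20 (colonocytes) and Chga (enteroendocrine cells) were well above background on every array. Several arrays stood apart in markers of other tissues or cells. The pancreas markers summed to 898000 (linear normalized signal, 6 of 6 markers well above background) on GFKO replicate 7 of day 0 against 18960 to 80050 on the other 12 arrays, and to 386900 on GFKO replicate 6 of day 7 (5 of 5 markers) against 4101 to 26470 on the other 7. Not all of them were absent elsewhere: Cela1 was well above background on 13 of 13 and 8 of 8 arrays, and Ctrb1 on 13 of 13 at day 0, so the sums on the other arrays hold these genes too. At day 0 the adipocyte markers were lowest on GFKO replicate 5 (705, against 13210 to 187300 on the other 12) and the T cell markers highest on GFKO replicate 6 (4198, against 999 to 1851). At day 7 GFKO replicate 2.1 had the highest mesothelium sum (2111, against 259 to 889) and, like replicate 6, all 5 pancreas markers well above background. GFWT replicate 5 of day 7 had the lowest epithelial sums, with colonocyte markers at 127000 (209400 to 288300 on the other 7), enteroendocrine markers at 45610 (78240 to 111600) and small intestine markers at 4473 (15760 to 82690), and the highest macrophage and dendritic cell sum (12060, against 4402 to 9397). The days are on different array designs, so day and design cannot be told apart and no level at day 7 is set against one at day 0.

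The receptor and its partner were measured on every array, whereas the CYP1 enzymes that are its best-known targets were mostly lost in the background. Ahr, Arnt, Tiparp, Nqo1 and Tph1 were well above background on 13 of 13 arrays at day 0 and on 8 of 8 at day 7, Ido1 on 13 and 7, and Ahrr on 12 and 7. Cyp1a1 was well above background on 3 of 13 and 0 of 8 arrays, Cyp1a2 on 1 and 0, and Cyp1b1 on 1 and 1. Brightness depends on the probe, so levels of different genes are not compared, and a dim probe shows that a transcript was not measured above background, not that it was absent. In whole tissue, fewer cells of a type and less RNA per cell cannot be told apart.

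**Figure D1:**
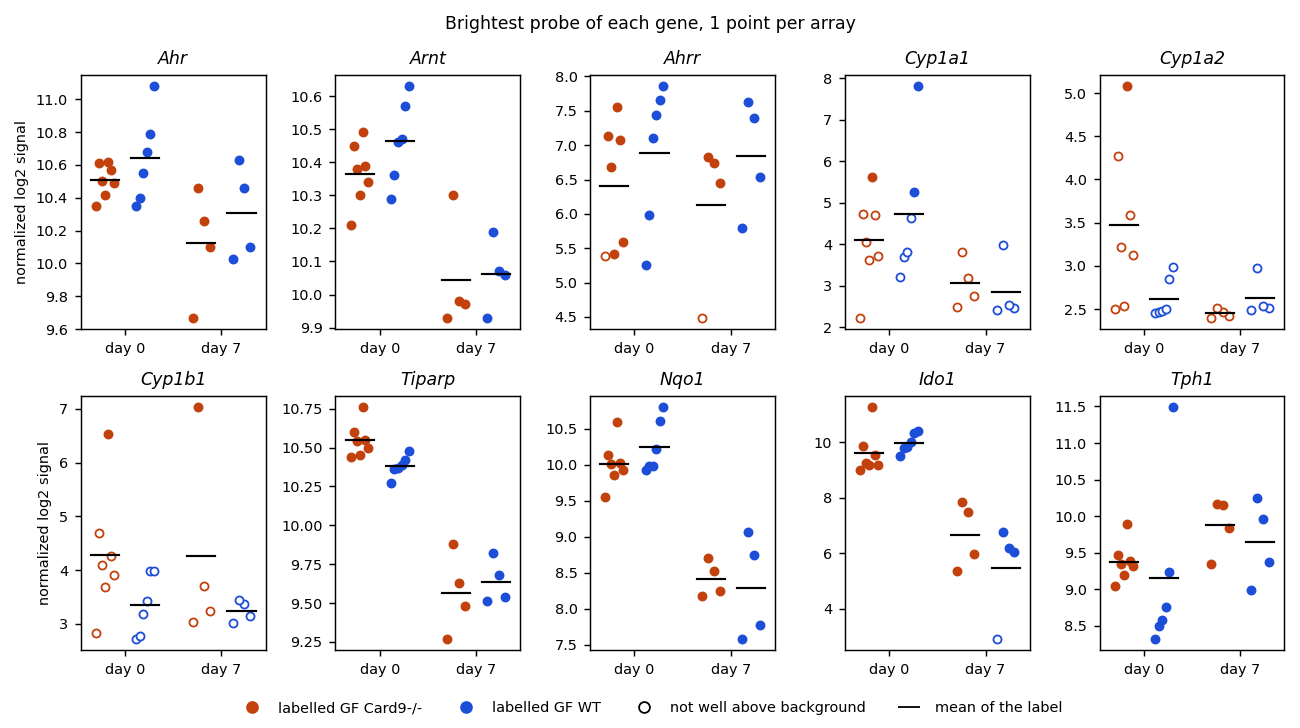
Normalized log2 signal of the brightest probe of each gene (y axis, scale differs by gene), 1 point per array, by label and day (x axis); open points were not well above background and bars are the label means. The CYP1 genes are open on most arrays, no gene separates the labels, and the days, normalized apart on different designs, are not to be compared within a panel.

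No gene of the set passed the test for a label difference on either day. At day 0, 0 of 10 passed an adjusted p of 0.05 (limma, Benjamini-Hochberg over all probes tested), where 0.0253% of all 47410 probes passed, and the adjusted p ranged from 0.670 to 0.955. At an unadjusted p under 0.05 there were 2 of 10, against 5.84% of all probes, and the labels overlapped for all 10, while 0.459% of all probes separated them. At day 7, 0 of 9 passed, where 0% of 44643 probes did, the adjusted p ranged from 0.913 to 0.999, 0 of 9 had an unadjusted p under 0.05 against 3.38% of all probes, and 0 of 10 separated the labels against 2.12%. Without GFWT replicate 1 of day 7, the array whose Card9 signal went against its own group, still 0 of 9 passed and the sign turned for Nqo1 alone (-0.06). The median log2 difference of the genes tested was -0.12 at day 0 (4 higher and 6 lower under the GFKO label) and 0.11 at day 7 (5 higher, 4 lower). The medians over all probes were 0.015 and 0.0013. With each array scaled to its 75th percentile, the day 7 medians were 0.00060 for these genes and -0.057 over all probes.

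No change of the label difference between the days passed either. On the 7 genes whose brightest probe is on both designs (Ahr, Arnt, Ahrr, Cyp1a1, Cyp1b1, Tiparp and Nqo1), 0 passed in a limma fit of all 4 groups, with adjusted p from 0.761 (Tiparp) to 0.992 (Cyp1b1), and 0% of 23633 shared probes passed (7.14% at an unadjusted p under 0.05). These p-values do not show that the labels are alike. The standard errors ran from 0.059 (Tiparp) to 0.73 (Cyp1a1) at day 0 and from 0.12 (Arnt) to 0.95 (Ido1) at day 7, so the dim and scattered genes could differ considerably without passing.

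**Figure D2:**
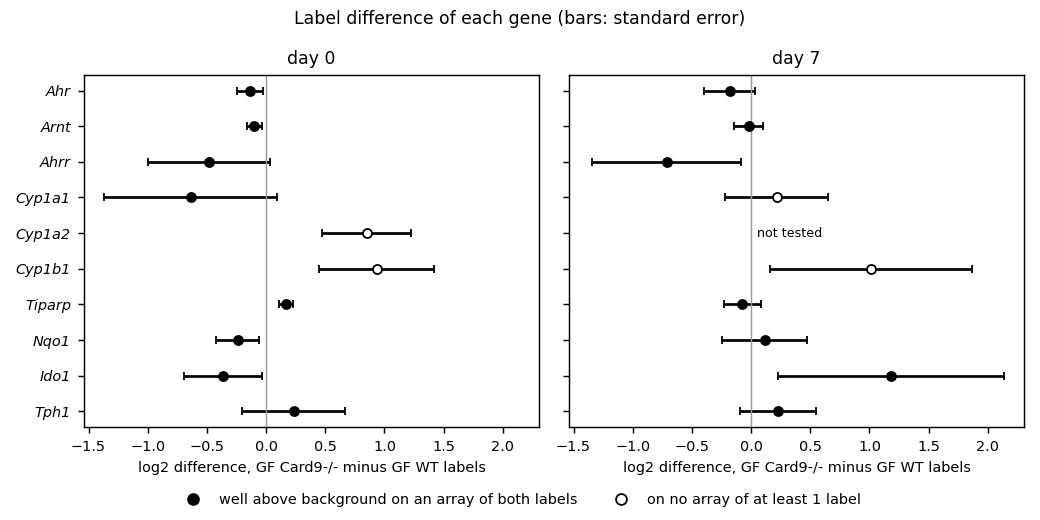
Log2 difference, GFKO minus GFWT as labelled (x axis), with its limma standard error, for each gene (y axis) at day 0 (left) and day 7 (right); open points are genes that were well above background on no array of at least 1 label, for which the difference rests on background. Tiparp and Arnt have the shortest bars at day 0, and the 0 line lies within 2 standard errors for 9 of 9 genes tested at day 7.

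Ahr itself spanned a narrow range. At day 0 its log2 signal was 10.35 at the lowest, 10.50 at the median and 10.62 at the highest in the 7 arrays labelled GFKO, and 10.35, 10.62 and 11.08 in the 6 labelled GFWT. The 3 highest arrays, replicates 2, 1 and 4 of the GFWT label, stood above all arrays of the other label, while the lowest of both labels were level. The means were 10.51 ± 0.10 (SD, n = 7) and 10.64 ± 0.27 (SD, n = 6), with GFKO minus GFWT at -0.14 (standard error 0.11, limma adjusted p = 0.912), which was -0.05 without GFWT replicate 2. At day 7 Ahr was at 10.26, 9.67, 10.46 and 10.10 in the arrays labelled GFKO (replicates 2, 2.1, 4 and 6), and at 10.46, 10.10, 10.63 and 10.03 in those labelled GFWT (replicates 1, 4, 5 and 6). Replicate 2.1 was the lowest of all 8, and the other arrays overlapped. The log2 difference was -0.18 (standard error 0.21, limma adjusted p = 0.919), which was -0.03 without GFKO replicate 2.1 and turned to 0.06 without GFKO replicates 2.1 and 6 together. The brightest Ahr probe lies at chr12:36182724-36182783 (NCBI37, minus strand), and the gene's other probes, 1 per design, were well above background on 1 of 13 and 0 of 8 arrays.

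Arnt, the partner through which AhR binds DNA, had the smallest SDs at day 7 (0.17 under the GFKO label and 0.11 under GFWT) among the genes whose brightest probe was well above background on all 8 arrays. At day 0 it was at 10.21, 10.38 and 10.49 (lowest, median and highest) in the arrays labelled GFKO and at 10.29, 10.46 and 10.63 in those labelled GFWT, overlapping over most of the range (log2 difference -0.10, standard error 0.065, limma adjusted p = 0.912). After DSS it was at 9.97, 9.98, 10.30 and 9.93 in the arrays labelled GFKO (replicates 2, 2.1, 4 and 6) and at 10.06, 10.19, 10.07 and 9.93 in those labelled GFWT (replicates 1, 4, 5 and 6). Replicate 4 of the GFKO label was the highest of the 8, and the log2 difference was -0.02 (standard error 0.12, limma adjusted p = 0.999), with a sign that turned under 5 alternatives in the processing or the arrays, besides single arrays left out. The other probes gave other values. A second day 7 probe well above background on 8 of 8 arrays gave a log2 difference of -0.42 (standard error 0.24, limma adjusted p = 0.913, exact permutation p = 0.0571), at 7.32 to 7.53 under the GFKO label and 7.49 to 8.54 under GFWT, which overlapped. At day 0 the other 2 probes, well above background on 13 of 13 arrays, gave 0.049 (standard error 0.12) and 0.0047 (standard error 0.16), opposite in sign to the brightest. The brightest probe of Arnt lies at chr3:95301081-95301140 (NCBI37, plus strand).

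Ahrr, the repressor that AhR itself turns on, spread far more widely than the receptor. At day 0 it was at 5.39, 6.69 and 7.56 (lowest, median and highest) in the arrays labelled GFKO and at 5.25, 7.28 and 7.86 in those labelled GFWT. The arrays fell on either side of a gap, with 5 arrays at 5.25 to 5.98 and 8 at 6.69 to 7.86, and both sides held both labels. The 5 low arrays were all 3 on the slide of GFWT replicate 6, together with GFKO replicate 7 and GFWT replicate 5. The label means were 6.41 ± 0.92 (SD, n = 7) and 6.89 ± 1.04 (SD, n = 6), with a log2 difference of -0.48 (standard error 0.52, limma adjusted p = 0.913). It ran from -0.29 without GFWT replicate 2 to -0.81 without GFWT replicate 5, and was -0.30 with normexp.

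At day 7 Ahrr was at 6.74, 4.49, 6.83 and 6.45 in the arrays labelled GFKO (replicates 2, 2.1, 4 and 6) and at 7.40, 6.54, 7.63 and 5.79 in those labelled GFWT (replicates 1, 4, 5 and 6). Replicate 2.1, the only array on which the probe was not well above background, was the lowest, and 2 arrays labelled GFWT were the highest. GFKO minus GFWT was -0.71 (standard error 0.63, limma adjusted p = 0.913), and it was -0.17 without replicate 2.1, -0.45 without GFWT replicate 5, -1.06 without GFWT replicate 6 and -0.39 with normexp. The brightest probe lies at chr13:74348566-74348612 (NCBI37, minus strand), and the other Ahrr probe was well above background on 0 arrays of either day.

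Across the arrays, Ahrr followed the receptor, and no other gene of the set did so on both days. Pearson's r between Ahr and Ahrr was 0.770 at day 0 (n = 13, permutation p = 0.00055, adjusted p = 0.00495 over the 9 genes of a day) and 0.953 at day 7 (n = 8, exact permutation p = 7.44e-05, adjusted p = 0.00067). Spearman's rho was 0.786 (permutation p = 0.00229) and 0.976 (exact permutation p = 0.000397). The arrays with more Ahr were those with more Ahrr within either label: after subtracting the label means, r was 0.751 at day 0 and 0.949 at day 7. On the same day 0 values the genes most like Ahr, given below, had an r of 0.928 to 0.968. The share of all genes that reach the r of Ahrr was not counted, so the relation is not read as particular to it.

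Within the scan sessions of day 0, r of Ahr with Ahrr was 0.871 (n = 6) and 0.901 (n = 7), and the day 7 arrays were scanned in 1 session. Without the 2 arrays farthest from the median of Ahr, it was 0.805 at day 0 and 0.855 at day 7. Among the 8 arrays above the gap in Ahrr at day 0, r was 0.685 (exact permutation p = 0.053). That split was made on Ahrr itself after seeing the data and narrows its range, so it cannot show whether the relation rests on the gap. The 5 arrays below the gap are too few for a coefficient. In those 5, Ahr and Ahrr were at 10.40 and 5.25 (GFWT replicate 5), 10.42 and 5.39 (GFKO replicate 5), 10.50 and 5.41 (GFKO replicate 7), 10.35 and 5.59 (GFKO replicate 6) and 10.35 and 5.98 (GFWT replicate 6). Ahrr did not rise with Ahr among them, since the 2 arrays with the most Ahrr had the least Ahr. Without the slide of GFWT replicate 6, r was 0.684 over 10 arrays and no longer passed (permutation, adjusted p = 0.124), with Arnt in the same position (r = 0.692, adjusted p = 0.124).

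**Figure D3:**
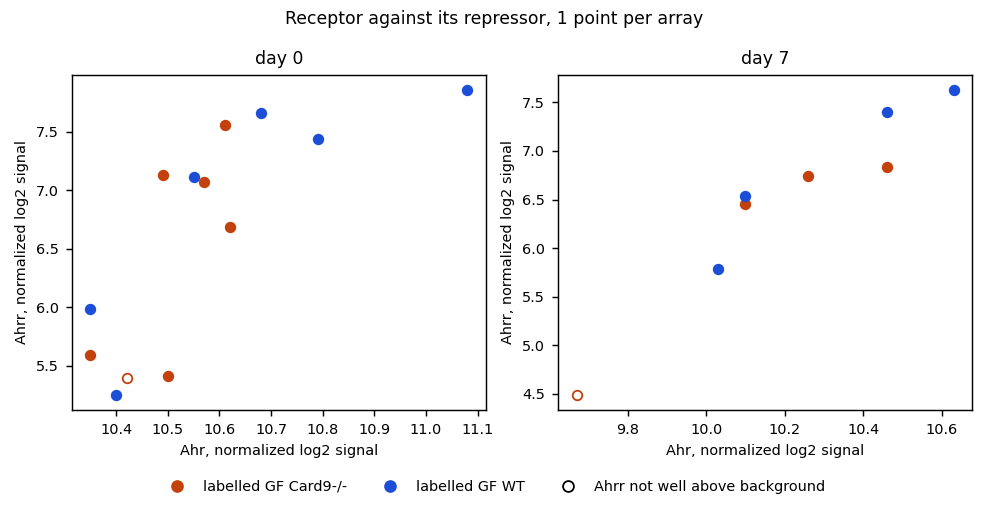
Normalized log2 signal of Ahr (x axis) against that of Ahrr (y axis), 1 point per array, at day 0 (left, 13 arrays) and day 7 (right, 8 arrays), coloured by label. The points rise together on both days, with a gap in Ahrr between 5.98 and 6.69 at day 0 and GFKO replicate 2.1 at the lower left at day 7.

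Arnt followed Ahr at day 0 but this depended on few arrays. Its r with Ahr was 0.771 (n = 13, permutation p = 0.00147, adjusted p = 0.00662), but rho was 0.665 (permutation p = 0.0146, adjusted p = 0.0659), and r was 0.464 without the 2 arrays with Ahr farthest from its median. Within the scan sessions it was 0.784 (n = 6) and 0.737 (n = 7). At day 7 r was 0.440 (n = 8, exact permutation adjusted p = 0.418).

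None of the 7 downstream and ligand-route genes passed against Ahr on either day with the values as they are, and after subtracting the label means Nqo1 passed at day 0 (r = -0.65, permutation adjusted p = 0.0469). At day 0 r ran from -0.573 (Tph1, n = 13, permutation adjusted p = 0.181) to -0.201 (Cyp1b1, adjusted p = 0.473), so all 7 had a negative sign. Of these, Cyp1a1 was well above background on 3 of 13 arrays and Cyp1a2 and Cyp1b1 on 1 each, so their signs rest largely on background. At day 7 the lowest was that of Tph1 at -0.780 (n = 8, exact permutation adjusted p = 0.104), with Ido1 at -0.720 and Nqo1 at -0.712 (both adjusted p = 0.107), and the highest was that of Cyp1a1 at 0.674 (adjusted p = 0.131), a probe that was well above background on no day 7 array. The 18 relations share the Ahr values of their day and are not independent of each other.

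**Figure D4:**
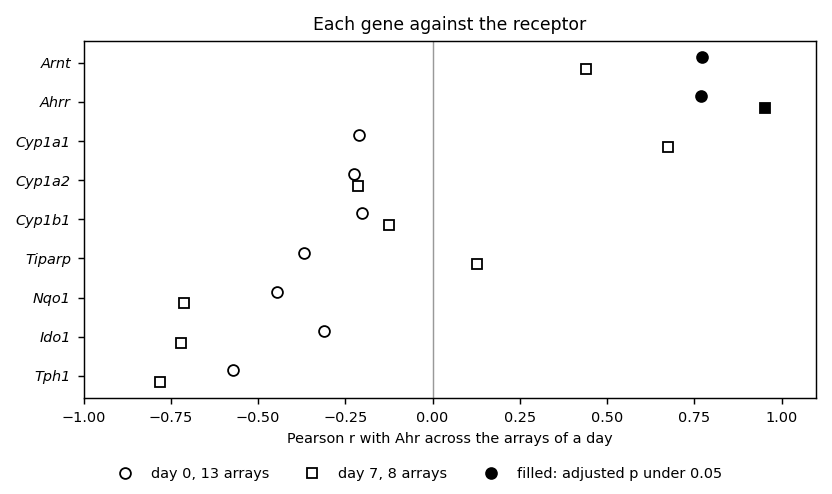
Pearson r of each gene with Ahr (x axis) across the 13 arrays of day 0 (circles) and the 8 arrays of day 7 (squares); filled points have an adjusted p under 0.05 over the 9 genes of a day. Ahrr is filled on both days and Arnt at day 0, while Nqo1, Ido1 and Tph1 lie left of 0 on both days without passing.

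Cyp1a1, the ligand-clearing enzyme most often read as a sign of AhR activity, was well above background on 3 arrays, all at day 0. It was at 2.23, 4.05 and 5.62 (lowest, median and highest log2 signal) in the arrays labelled GFKO and at 3.21, 4.22 and 7.81 in those labelled GFWT. The arrays above background were GFWT replicates 6 (processed signal 199 units) and 2 (44.0 units) and GFKO replicate 3 (52.0 units). The probe did not pass (limma adjusted p = 0.914), and no fold is given, since 1 of 7 arrays labelled GFKO and 2 of 6 labelled GFWT rose above background and the mean difference, -0.64 as measured, was -0.34 with dim values raised to the background limit, -0.31 with normexp and -0.02 without GFWT replicate 6. At day 7 the signals were 3.37 to 14.6 units, well above background on 0 of 8 arrays. The probe lies at chr9:57551535-57551594 (NCBI37, plus strand).

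Cyp1b1, another ligand-clearing enzyme of the family, stood out on a single array on each day, titled GFKO replicate 6 both times, though the samples are separate. At day 0 its signal was 90.3 units in GFKO replicate 6 and 4.53 to 22.04 units in the other 12 arrays, none of which was well above background. On the day 7 arrays it was 130 units in the array labelled GFKO replicate 6 and 7.63 to 13.5 units in the other 7. This was the array with the high pancreas markers, and it also held the highest T cell sum (1778, next 1305) and endothelium sum (9261, next 6627) of day 7. The part of these in the value was not tested. Without those arrays the probe was well above background on none of the rest. No fold is given for either day, since the other arrays of both labels hold only upper bounds. Cyp1a2, a liver enzyme in the main, was well above background on 1 array, GFKO replicate 6 of day 0, with 32.9 units against 4.05 to 22.8 in the other 12 (exact permutation p = 0.0396, limma adjusted p = 0.829). The same array thus held the highest signal of both enzymes at day 0, and it also held the highest T cell sum and the highest adipocyte sum (187300, next 104500), whose part in these values was not tested. Across the 13 arrays r of Cyp1b1 with the T cell list was 0.754 (permutation p = 0.0209, adjusted p = 0.168; rho = 0.286, permutation p = 0.342), and 0.156 without the 2 arrays farthest from the median of the list. At day 7 Cyp1a2 was at 2.97 to 11.4 units, above background on no array, and was not tested.

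Tiparp, which encodes an enzyme that ADP-ribosylates the receptor and dampens it, came closest to a label difference. At day 0 it was at 10.44, 10.54 and 10.76 (lowest, median and highest log2 signal) in the arrays labelled GFKO and at 10.27, 10.38 and 10.48 in those labelled GFWT. The ranges overlapped only between 10.44 and 10.48. GFKO minus GFWT was 0.17 (standard error 0.059), with an exact permutation p of 0.00583, and did not pass over all probes (limma adjusted p = 0.670). It had the same sign on each of the 4 slides, from 0.07 to 0.29. At day 7 it was at 9.48, 9.27, 9.63 and 9.88 in the arrays labelled GFKO (replicates 2, 2.1, 4 and 6) and at 9.51, 9.68, 9.54 and 9.82 in those labelled GFWT (replicates 1, 4, 5 and 6), which overlapped fully (log2 difference -0.07, standard error 0.16, limma adjusted p = 0.963). Another Tiparp probe, on the day 7 design only, gave 0.24. The brightest probe lies at chr3:65358749-65358808 (NCBI37, plus strand).

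Nqo1, a quinone reductase driven by AhR and NRF2, did not separate the labels. At day 0 it was at 9.55, 10.01 and 10.60 (lowest, median and highest) in the arrays labelled GFKO and at 9.93, 10.10 and 10.80 in those labelled GFWT (log2 difference -0.24, standard error 0.18, limma adjusted p = 0.912, and -0.13 without GFWT replicate 6). After DSS it was at 8.24, 8.70, 8.52 and 8.17 in the arrays labelled GFKO (replicates 2, 2.1, 4 and 6) and at 7.77, 8.75, 7.58 and 9.07 in those labelled GFWT (replicates 1, 4, 5 and 6). The arrays labelled GFWT thus held both the 2 lowest and the 2 highest values at day 7 (log2 difference 0.11, standard error 0.36, limma adjusted p = 0.982), and the difference was -0.12 without GFWT replicate 5, the lowest array, and 0.37 without GFWT replicate 6, the highest. The probe lies at chr8:109912440-109912499 (NCBI37, minus strand).

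Ido1, which opens the kynurenine route from tryptophan and is induced by interferon, had the widest range of the 10 genes over the arrays of day 7. At day 0 it was at 9.02, 9.26 and 11.27 (lowest, median and highest) in the arrays labelled GFKO and at 9.51, 9.93 and 10.41 in those labelled GFWT, where GFKO replicate 5 was the highest of all 13 arrays. The log2 difference was -0.36 (standard error 0.33, limma adjusted p = 0.912) and -0.63 without that replicate. On the day 7 arrays it was at 5.35, 7.84, 5.98 and 7.50 in the arrays labelled GFKO (replicates 2, 2.1, 4 and 6) and at 6.77, 6.05, 2.91 and 6.20 in those labelled GFWT (replicates 1, 4, 5 and 6). Replicates 2.1 and 6 of the GFKO label were the highest, and GFWT replicate 5, the lowest, was not well above background. That array, which had the lowest epithelial sums, was the lowest of the 8 for Ido1, Nqo1 and Tph1 and the highest for Ahr and Ahrr, and the part of its epithelial content in these values was not tested. GFKO minus GFWT was 1.18 (standard error 0.95, limma adjusted p = 0.913) and ranged from 0.32 (without GFWT replicate 5) to 1.62 when single arrays were left out, while normexp gave 0.52, dim values raised to the background limit 0.63 and the values normalized by the authors 0.57. The probes used at the 2 days differ and lie at chr8:25694798-25694857 at day 0 and chr8:25694613-25694672 at day 7 (NCBI37, minus strand).

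Tph1, the enzyme that starts serotonin synthesis from tryptophan in enterochromaffin cells, was split by 1 array. At day 0 it was at 9.04, 9.34 and 9.89 (lowest, median and highest) in the arrays labelled GFKO and at 8.32, 8.66 and 11.49 in those labelled GFWT. GFWT replicate 6, with 2723 units against 411 to 802 in the other 12 arrays, was the highest, and the other 5 arrays labelled GFWT reached at most 9.24. The log2 difference was 0.23 (standard error 0.44, limma adjusted p = 0.955) with all arrays and 0.70 without that replicate (adjusted p = 0.326). By slide it was 1.39, 0.38 and 0.88 on the first 3 slides and -2.31 on the slide of that replicate. At day 7 it was at 9.34, 10.17, 9.83 and 10.15 in the arrays labelled GFKO (replicates 2, 2.1, 4 and 6) and at 9.37, 10.25, 8.99 and 9.96 in those labelled GFWT (replicates 1, 4, 5 and 6), with no separation (log2 difference 0.23, standard error 0.32, limma adjusted p = 0.928, and 0.01 without GFWT replicate 5). The probes lie at chr7:53902606-53902665 at day 0 and chr7:53902553-53902612 at day 7 (NCBI37, minus strand).

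Wider parts of the pathway were read from 7 lists of 57 genes: the receptor complex, other receptor targets, NRF2 targets, the kynurenine route, serotonin, cells and cytokines that depend on the receptor, and interferon inputs to Ido1. At day 0, 0 of 53 genes tested passed (24 higher and 29 lower under the GFKO label, median log2 difference -0.03), and 5 had an unadjusted p under 0.05, beside 0.0253% and 5.84% of all probes. At day 7, 0 of 51 passed (30 higher, 21 lower, median 0.06), and 3 had an unadjusted p under 0.05, beside 0% and 3.38% of all probes. By list, the medians at day 0 ran from -0.13 for the kynurenine route (2 of 10 higher) to 0.17 for the interferon inputs (5 of 7 higher), and at day 7 from -0.08 for NRF2 targets (3 of 7 higher) to 0.25 for the kynurenine route (5 of 8 higher).

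The lowest p of these lists on both days belonged to Scin, an actin-severing protein and AhR target. Its mean log2 signal at day 0 was 14.54 ± 0.14 (SD, n = 7) under the GFKO label and 14.23 ± 0.17 (SD, n = 6) under GFWT (log2 difference 0.30, limma adjusted p = 0.481). After DSS it was 14.72 ± 0.18 against 14.13 ± 0.36 (SD, n = 4 each), a log2 difference of 0.59 (limma adjusted p = 0.913). Neither passed. Next came Irf1, the interferon-responsive factor, at day 0 (log2 difference -0.24, limma adjusted p = 0.578) and Maoa, which breaks down serotonin, at day 7 (0.80, limma adjusted p = 0.913). Il22, the cytokine that AhR-dependent lymphocytes make, was tested on both days and was well above background on 0 arrays.

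Cell type markers moved with several of these genes, and Ahrr had the highest r with them at day 0. Each of the 10 genes was set against the log2 summed level of 12 lists of cell type markers on both days (240 relations, adjusted together). At day 0, 9 relations passed. The share of all genes that would pass against the same lists was not counted. The relations are therefore not read as particular to these genes. Ahrr rose with the macrophage and dendritic cell list (Csf1r, Adgre1, Cd68, Itgax and Flt3; r = 0.914, n = 13, permutation p = 1e-05, the smallest that the permutations can give, adjusted p = 0.0024; rho = 0.934, permutation p = 3e-05). It rose likewise with the endothelial list (Pecam1, Cdh5, Kdr and Tek; r = 0.919, permutation p = 2e-05, adjusted p = 0.0024; rho = 0.934, permutation p = 3e-05) and with smooth muscle (r = 0.873, permutation p = 0.00029, adjusted p = 0.0139; rho = 0.802, permutation p = 0.00151).

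Ahr followed the same macrophage list (r = 0.772, n = 13, permutation p = 0.00118, adjusted p = 0.0354; rho = 0.753, permutation p = 0.00434) and endothelial list (r = 0.785, permutation p = 0.00053, adjusted p = 0.0212; rho = 0.824, permutation p = 0.00101) at day 0. Against the colonocyte list both genes had a negative r that did not pass. For Ahr r was -0.644 (permutation adjusted p = 0.183) with a rho of -0.852 (permutation p = 0.00058). For Ahrr r was -0.599 (permutation adjusted p = 0.158) with a rho of -0.775 (permutation p = 0.0024). Within the 2 scan sessions of day 0, r of Ahrr with the macrophage list was 0.982 and 0.839, and with the endothelial list 0.977 and 0.871, and without the 2 arrays farthest from the median of the list r with the macrophage and the endothelial list was 0.877 and 0.918. For Ahr the session values were 0.907 and 0.798 with the macrophage list and 0.853 and 0.808 with the endothelial list, and 0.746 and 0.765 without the 2 farthest arrays. For Ahrr and smooth muscle they were 0.867 and 0.973, and 0.834. The summed linear level of the macrophage list ran from 2752 to 8330 (median 5601) in the arrays labelled GFKO and from 2168 to 13280 (median 9400) in those labelled GFWT, with 4 to 5 and 5 of its 5 markers well above background. The endothelial list ran from 482 to 1751 and from 624 to 2933, with 4 of 4 markers well above background on all 13 arrays.

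At day 7 the endothelial relation was not seen and the macrophage relation did not pass. Ahrr had an r of 0.684 with the macrophage list (n = 8, exact permutation p = 0.0587, adjusted p = 0.235) and of -0.230 with the endothelial list (exact permutation adjusted p = 0.796). For Ahr they were 0.698 (exact permutation adjusted p = 0.224) and -0.361 (adjusted p = 0.633). The macrophage list ran from 5093 to 9397 in the arrays labelled GFKO and from 4402 to 12060 in those labelled GFWT, and the endothelial list, in which Kdr leads on this design, from 6026 to 9261 and from 4968 to 6627. The part of these cells in the relation of Ahrr with Ahr was not tested.

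**Figure D5:**
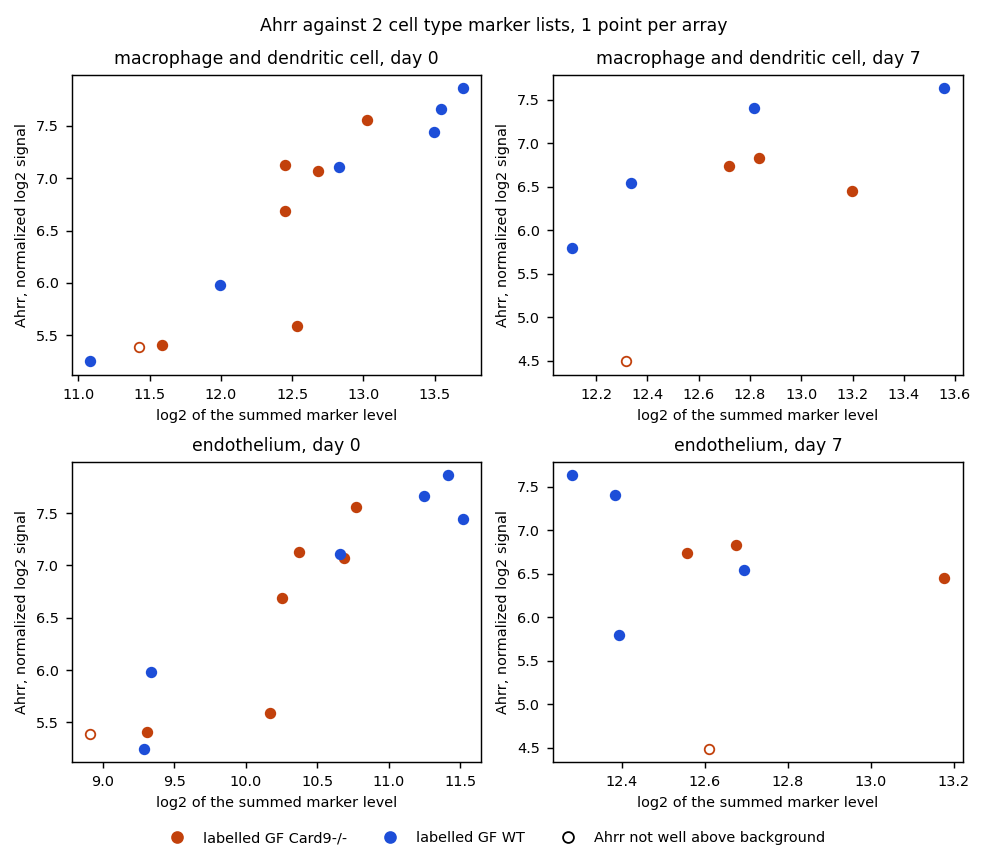
Log2 of the summed level of the macrophage and dendritic cell markers (upper row) and the endothelial markers (lower row) on the x axis against Ahrr (normalized log2 signal, y axis), 1 point per array, at day 0 (left) and day 7 (right). At day 0 Ahrr climbs with both lists (r = 0.914 and 0.919, 13 arrays), and at day 7 with neither to an extent that passed (r = 0.684 and -0.230, 8 arrays).

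Nqo1 and Tph1 followed epithelial lists instead. At day 0 Nqo1 (r = 0.860, n = 13, permutation p = 0.00028, adjusted p = 0.0139; rho = 0.802, permutation p = 0.00161) and Tph1 (r = 0.861, permutation p = 0.0017, adjusted p = 0.0408; rho = 0.665, permutation p = 0.0165) rose with the colonocyte list, while Tph1 also rose with the small intestine list (r = 0.762, permutation p = 0.00231, adjusted p = 0.0417; rho = 0.753, permutation p = 0.00431) and fell with the B and plasma cell list (r = -0.782, permutation p = 0.00023, adjusted p = 0.0139; rho = -0.742, permutation p = 0.00498). Within the scan sessions r with the colonocyte list was 0.832 and 0.965 for Nqo1 and 0.651 and 0.943 for Tph1, and that of Tph1 was 0.816 and 0.796 with the small intestine list and -0.642 and -0.852 with the B and plasma cell list. Without the 2 arrays farthest from the median of the list, r was 0.711 for Nqo1 and 0.725, 0.646 and -0.688 for the 3 relations of Tph1. The colonocyte list was highest on GFWT replicate 6 (605600, against 380900 to 499500 on the other 12 arrays), the array that was also highest for Cyp1a1, Nqo1 and Tph1. It had the highest enteroendocrine sum too (107900, against 71110 to 85830) and the highest small intestine sum (256300, next 163500), and the part of that array's epithelial content in those 3 values was not tested.

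At day 7, 5 marker relations passed, and here too the share of all genes that would pass was not counted. Tph1 (r = 0.949, n = 8, exact permutation p = 0.00134, adjusted p = 0.0357; rho = 0.857, p = 0.0107) and Nqo1 (r = 0.867, exact permutation p = 0.00211, adjusted p = 0.0417; rho = 0.857, p = 0.0107) rose with the small intestine list, whose sum is led by Fabp2. Ido1 rose with the colonocyte list (r = 0.943, exact permutation p = 0.00243, adjusted p = 0.0417; rho = 0.714, p = 0.0576), Cyp1b1, well above background on 1 of the 8 arrays, with the T cell list (r = 0.885, exact permutation p = 0.00228, adjusted p = 0.0417; rho = 0.833, p = 0.0154), and Ahrr fell with the adipocyte list (r = -0.866, exact permutation p = 0.000744, adjusted p = 0.0255; rho = -0.929, p = 0.00223). Without the 2 arrays farthest from the median of the list, r was 0.909 for Tph1, 0.597 for Nqo1, 0.603 for Ido1, 0.541 for Cyp1b1 and -0.758 for Ahrr, so the middle 3 rest largely on those arrays.

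The genes most like Ahr over the 13 day 0 arrays, after subtracting each label's mean and among 21685 genes, were Unk (r = 0.968), Mylip (0.959), E130102H24Rik (0.943), Arl14ep (0.938) and Kansl1l (0.928). At day 7 the r of Unk was -0.154, of Arl14ep -0.591, of Mylip 0.757 and of Kansl1l 0.858, and E130102H24Rik had no value, so the likeness of Unk and Arl14ep to the receptor was not seen on the other design. Among those most like Cyp1a1 were Slc35e3 (0.927), Kcnu1 (0.918), Dnajc19 (0.911) and Malsu1 (0.910), whose r at day 7 ran from -0.647 to 0.187. Cyp1a1 was not well above background on 10 of the 13 arrays of day 0 or on any of day 7, so these values are largely those of its background. A list of the highest of so many values holds high ones by selection, and no test is attached to them.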

How the data were processed

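The deposited files held the scanner intensity of each spot (Cy3, 1 colour), background-subtracted in the processed signal by Agilent Feature Extraction 10.7.3.1 per the submitters' processing notes, with its detection p-value and well-above-background call. A table of log2 values deposited by the authors (their methods name agilp and quantile normalization) was used only as an alternative. Day 0 and day 7 are on different designs.

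Processed signals were log2-transformed, quantile normalized within each day and averaged per probe (limma 3.58.1, R 4.3.3). Outlier spots were left out. Probes detected (p under 0.05) on 60% or more of a label's arrays were tested with lmFit and eBayes, GFKO minus GFWT, with Benjamini-Hochberg adjustment over all probes. The fit was tested on simulated data. Each gene is given by its brightest probe, alongside the 2 genes of the pathway lists with the lowest p in each comparison and the 5 genes most like Ahr or Cyp1a1, of which 1 is not reported here. Correlations have permutation p-values (SciPy 1.17.1, 100000 resamples at day 0, exact at day 7, two-sided). The members and lists were chosen with earlier results of these data known. Alternatives were another scaling, background correction or filter, blocks for slide, scan session and replicate number, and arrays left out. The number of arrays limits the precision. Exons and UTRs at the probes were not looked up, since no NCBI37 annotation was used here.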

Additional observations from a re-analysis of the deposited data

Results flagged for a closer look

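In 7 of 40 label groups of a gene on a day, 1 array stood apart from the rest (gap to its nearest neighbour over the whole range, above Dixon's critical value), where chance gives about 1 in 20. At day 0 they were Ido1 on GFKO replicate 5 (11.27, nearest 9.88, normalized log2 signal) and Tph1 on GFWT replicate 6 (11.49, nearest 9.24). At day 7 they were Arnt on GFKO replicate 4 (10.30, nearest 9.98) and Cyp1b1 on GFKO replicate 6 (7.03, nearest 3.71). Ahrr on GFKO replicate 2.1 (4.49, nearest 6.45), Cyp1a1 on GFWT replicate 5 (3.98, nearest 2.54) and Cyp1a2 on GFWT replicate 6 (2.98, nearest 2.54) stood apart at day 7 on signals that were not well above background.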

How the results depend on the processing

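0 of the genes passed under any alternative on either day (lowest adjusted p over all of them 0.316 at day 0 and 0.777 at day 7, limma). All 247 alternative values of the day 0 differences kept their sign, as did 152 of 169 at day 7 and 146 of 161 of the difference between the days. With only probes well above background in at least 60% of the arrays of a label tested, the CYP1 genes had no value. The 12 probes past the threshold at day 0 became 27 with normexp, 22 in the authors' table, 22 with that stricter filter and 8 to 16 with single arrays left out. At day 7 there were 0, and 1 without GFWT replicate 1. For the difference between the days there were 0, and 2 without GFWT replicate 5 or 6 of day 7. The replicate block gave 41 probes at day 0 and changed no call of a member. Same-numbered arrays did not all deviate together (r from -0.02 to 0.37 at day 0, 0.11 and 0.03 at day 7). The correlation within a replicate number that limma estimated for the block was 0.219 at day 0 and 0.210 at day 7. Whether the numbers pair the samples is not known. The arrays labelled GFKO 2 and 2.1 of day 7 differed as much as other arrays of a label (SD of the log2 difference 0.852 against 0.726 to 1.08) and were counted as 2.

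Some signs turned. At day 7 Arnt was 0.00060 with the 75th percentile, 0.0053 with normexp, 0.012 in the authors' table, 0.0045 with GFKO 2 and 2.1 averaged and 0.070 without GFKO 2.1 and 6, the arrays with the most pancreas signal, which were left out after seeing the data. Without those arrays Ahr was 0.056 and Tph1 -0.062. Cyp1a1 was -0.049 with the 75th percentile, and Tiparp 0.081 as the mean over its probes. With single arrays left out, the day 7 difference ran from -0.10 to 0.025 for Arnt (0.0020 without GFKO 2.1), from -0.037 to 0.591 for Cyp1a1, from -0.12 to 0.374 for Nqo1 and from -0.18 to 0.026 for Tiparp. The difference between the days ran from -0.16 to 0.104 for Ahr (0.0030, 0.012, 0.0056 and 0.062 without GFWT 5 or 6 of day 0 and GFWT 1 or 5 of day 7), from -0.58 to 0.313 for Ahrr (0.093 and 0.030 without GFWT 5 of day 0 or of day 7), from -0.0037 to 0.123 for Arnt and from -0.85 to 0.481 for Cyp1b1 (-0.050, -0.16, -0.050 and -0.023 without GFWT 2, GFKO 3, GFWT 4 or GFKO 5 of day 0). It was -0.021 for Cyp1b1 with both days quantile normalized together. The cause was not tested.

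Without the slide of GFWT replicate 6, 0 genes passed against Ahr at day 0 (from 2), over fewer arrays and with r of Ahrr at 0.684. There r of Ahr with Cyp1a1 (0.246) and Cyp1b1 (0.038) turned positive. After subtracting label means, Nqo1 passed against Ahr at day 0 (r = -0.65, permutation adjusted p = 0.0469) and Cyp1b1 at day 7 was at 0.0026. Cyp1a2 at day 7 was at 0.222 with the 75th percentile. The relation of Ahrr to Ahr kept its sign over the scalings, the authors' table, the subtraction of label or scan session means and the slide left out (0.684 to 0.855 at day 0, 0.893 to 0.972 at day 7, where no session or slide was taken out), and within the scan sessions of day 0 (0.871 and 0.901). It passed under these settings except without that slide, and was not tested within sessions. Among the 8 arrays above the gap in Ahrr r was 0.685 (exact permutation p = 0.053), a split on Ahrr itself that cannot test the relation. The relations to marker lists, the scan session means and the gap in Ahrr were added after seeing the data. For the CYP1 genes the signal over background sets the limit, since most arrays gave only an upper bound.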
